A study of Mus musculus with 8 samples.

Results

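The barcodes described here carried transcripts of Sparc and fibrillar collagen genes in a single-cell library of cells sorted for CD45, the surface protein of leukocytes, and are called Sparc/Col3a1 barcodes. They were chosen by 4 conditions on unique molecular identifiers (UMIs), the tags that count single captured transcripts. A barcode needed at least 20 UMIs of Col1a1, Col1a2, Col3a1 and Sparc together, fewer than 100 UMIs of C1qa, C1qb, C1qc, Apoe and Lyz2 per 10000 UMIs, at most 1 UMI of Ptprc, which encodes CD45, and at most 1 UMI of Cd3d, Cd3e and Cd3g together. This gave 1095 of 37757 barcodes, of which 304 and 182 came from LNP-Sirpa replicates 1 and 2 and 303 and 306 from control replicates 1 and 2. The tumours were MC38 tumours, grown from a mouse colon carcinoma line, in mice labelled wild-type. The LNP-Sirpa group (n = 2 libraries) was treated with LNP-Sirpa, an agent that by the series title degrades the myeloid checkpoint receptor SIRPα in tumours, and the control group (n = 2 libraries) carries no label other than control. The labels state no strain, age, dose or control treatment, nor whether a library came from 1 animal. The spread between libraries of a group, on which every p-value rests, may therefore be technical. All libraries carry the same batch label, and the sort for CD45 sets in part how many non-leukocytes remain.

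Fibroblasts are the mesenchymal cells that secrete collagens I and III and the proteoglycans of the matrix, and in tumours they are usually told from other cells by Pdgfra, Pdgfrb, Fap, Thy1, Postn and Lum. Carcinoma cells can switch on collagens, Sparc and other mesenchymal genes too, so matrix transcripts alone do not name a lineage. Most nucleated cells answer type I interferon with antiviral proteins and answer interferon γ with guanylate-binding proteins, immunity-related GTPases and the immunoproteasome. Both programmes raise antigen presentation on MHC class I.

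Sparc/Col3a1 barcodes were deep, which the rule sets in part, since its floor of 20 UMIs favours depth. Their median was 13080.5 and 15889 UMIs in the LNP-Sirpa libraries and 14940 and 13059 in the control libraries, against 5748 and 5903 (LNP-Sirpa) and 6765 and 6407.5 (control) in all other barcodes. Summed per library they held 4750987 and 3122470 UMIs (LNP-Sirpa) and 5621818 and 4737257 UMIs (control). Of 1434 barcodes with at least 20 UMIs of the 4 matrix genes, 136 failed the myeloid ceiling and 203 failed the Ptprc or Cd3 ceiling. Just inside the threshold, 63 members had 20 to 24 UMIs of the 4 genes, and just outside it 70 barcodes that met the other conditions had 15 to 19. Barcodes are deposited under running labels, not nucleotides, and pairs of libraries share 830 to 1242 of these labels, so shared cells cannot be looked for.

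The label of these cells as fibroblast-like fitted most matrix genes, but the lineage markers were split and several defining fibroblast genes were scarce. By choice of the barcodes, Sparc was found in 100%, Col3a1 in 96.71% and Col1a2 in 93.52% of members. Col1a1, also in the rule and the defining collagen of fibroblasts, was found in only 34.89%. Its share was 62.17% and 14.84% of members in LNP-Sirpa replicates 1 and 2, and 25.74% and 28.76% in control replicates 1 and 2. Thinned to 3000 UMIs a barcode, which left out 8 and 1 LNP-Sirpa and 14 and 15 control members, the same shares were 36.49% and 6.08% (LNP-Sirpa) and 14.88% and 15.12% (control), so LNP-Sirpa replicate 1 stood above the other 3 libraries. In T cell barcodes, which should lack the gene, the thinned shares were 0.37% to 2.44%.

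The genes with the largest fold over all other barcodes (10 CPM added to both, where CPM is the UMI count of a gene scaled to the total of the summed barcodes) are given as a description, since the same barcodes chose them. They were Ly6c1, a small surface protein, at 34.6-fold, Sparc at 33.79-fold, the proteoglycan gene Dcn at 28.52-fold and Col3a1 at 27.64-fold. Igfbp6, which binds insulin-like growth factors, stood at 26.19-fold and the membrane protein gene Tm4sf1 at 25.96-fold. The actin-binding Cald1, the collagen chaperone Serpinh1, the proteoglycan Bgn and the collagen processing protein Pcolce followed at 19.51-fold to 20.98-fold. Also among the 25 were the retinoic acid binding proteins Crabp1 (19.47-fold) and Crabp2 (15.23-fold), the transcription factor Sox9 (15.23-fold), Ankrd1 (15.37-fold) and Cd34 (15.15-fold). Dcn was uneven between libraries, at 1487 and 388 CPM in LNP-Sirpa replicates 1 and 2 and 692 and 752 CPM in control replicates 1 and 2.

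Of 13 fibroblast lineage genes, the mesenchymal transcription factor Prrx1 was present in 66.85% of members, Twist1 in 33.33%, Twist2 in 33.97% and the PDGF receptor gene Pdgfrb in 32.33%. Prrx1 stood at 150 and 77.8 CPM in the LNP-Sirpa libraries and 113 and 99.2 CPM in the control libraries, with 0.72 to 1.22 CPM in myeloid barcodes. Cd34, of the same list, was found in 91.6% of members, and Pdpn had 171 CPM pooled over 1077 of them. Islr was found in 20.37%, Dpt in 9.13% and Meox1 in 0.27%. Pdgfra, Fap, Thy1 and Tcf21 of the list were scarce, as were Lum and Postn outside it. Pdgfra, the receptor that marks most fibroblasts, had 18.3 and 5.12 CPM (LNP-Sirpa) and 9.96 and 17.5 CPM (control). Fap, the surface protease of activated fibroblasts, had 0.21 and 0.64 CPM (LNP-Sirpa) and 0.36 and 3.80 CPM (control), which overlapped its 0.76 to 1.82 CPM in myeloid barcodes. Lum was found in 1.1% of members, the matrix protein gene Postn in 3.38% and Thy1 in 9.22%. Tcf21 had no UMI in 1095 members, which allows a share of up to 0.274% of barcodes with a UMI and sets no limit on cells that express the gene.

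Contractile genes were also split. Smooth muscle and myofibroblast actin, Acta2, was found in 7.03% of members, Tagln in 1.1% and Myl9 in 0.37%, while the tropomyosin genes Tpm1 and Tpm2 were found in 86.21% and 80.82%. Collagen VI was common, with Col6a1 in 88.77% and Col6a2 in 81.55% of members, whereas the crosslinking enzyme Lox was found in 0.91%. Other genes that were frequent in members and near 0 elsewhere included the chromatin protein gene Hmga2, at 193 and 177 CPM (LNP-Sirpa) and 215 and 174 CPM (control), with 1.84 to 3.12 CPM in myeloid barcodes. Fosl1, a subunit of the transcription factor AP-1, was found in 61.1% of members, the tubulin gene Tubb3 in 65.66% and the basal keratin gene Krt14 in 38.9%. Hmga2, Fosl1, Tubb3 and Krt14 were picked after their values were seen.

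**Figure D1:**
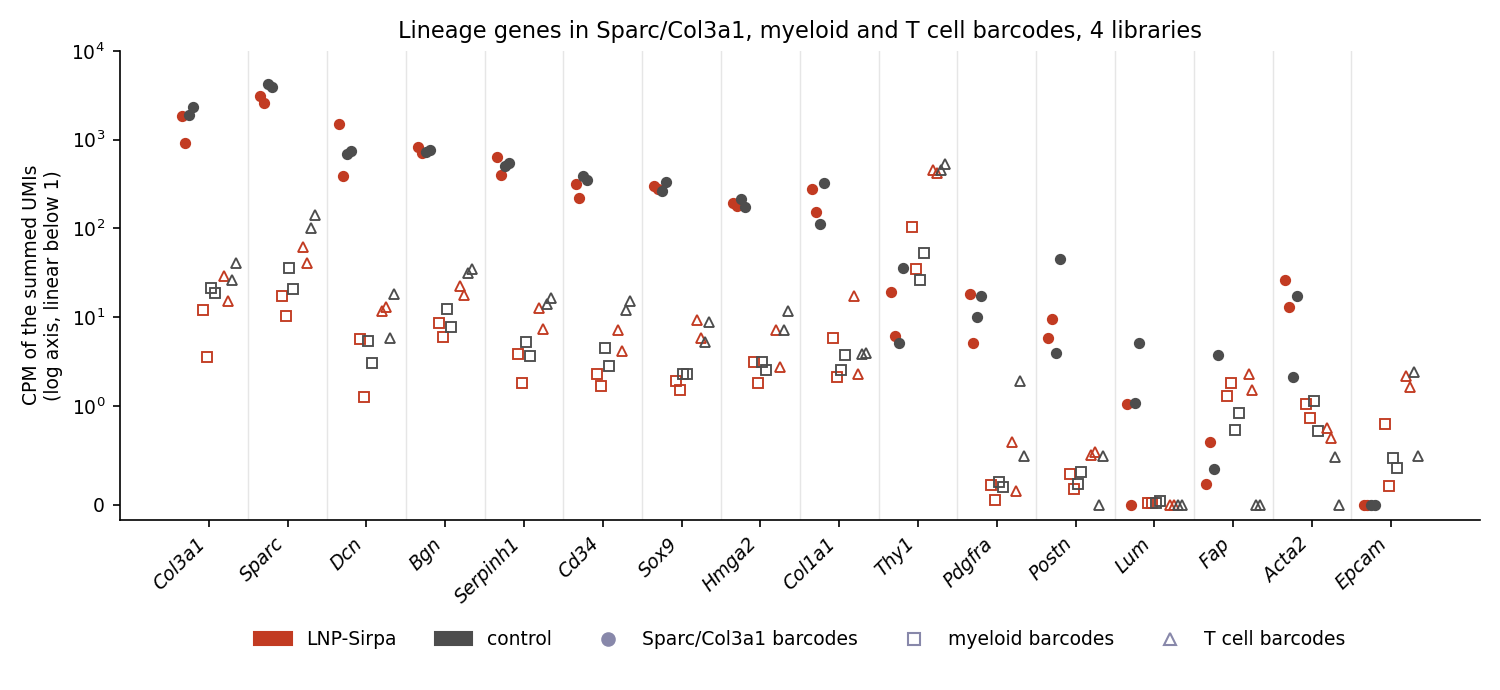
CPM of 16 genes in the summed Sparc/Col3a1, myeloid and T cell barcodes of each library on a log axis that is linear below 1, with LNP-Sirpa in red and control in grey (4 libraries, no error bars). The matrix genes, Cd34, Sox9 and Hmga2 lie above 100 CPM in every library's Sparc/Col3a1 barcodes, while Lum and Fap lie below 6 CPM and Epcam at 0.

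Markers of other cell types were mostly low, but the cartilage and bone, mesothelial and pericyte lists stood above all other barcodes in every library. The endothelial list did so in the control libraries only. The 6 cartilage and bone markers in the files summed to 344 and 323 CPM (LNP-Sirpa) and 304 and 373 CPM (control), against 50.9 to 108.1 CPM in all other barcodes, of which Sox9 alone made up 300.8 and 279.9 CPM (LNP-Sirpa) and 263 and 332 CPM (control). The 6 mesothelial markers summed to 59.4 and 95.1 CPM (LNP-Sirpa) and 159 and 181 CPM (control), against 2.1 to 5.2 CPM in all other barcodes; nearly all of this was Msln, and 4 of the 6 were not detected. The 10 tumour epithelial markers in the files summed to 2.9 and 5.1 CPM (LNP-Sirpa) and 6.6 and 5.7 CPM (control), with Epcam, Krt8 and Krt18 at 0. MC38 is an epithelial tumour line by origin, and Krt8 and Krt18 are the keratins of simple epithelia. Whether the MC38 cells of these tumours express these genes was not tested, so their absence does not name the members. The 10 endothelial markers summed to 14.9 and 11.8 CPM in LNP-Sirpa libraries and 93.0 and 43.1 CPM in control libraries. In all other barcodes they summed to 43.2 and 42.0 CPM (LNP-Sirpa) and 20.2 and 17.8 CPM (control). The 9 pericyte markers summed to 51.6 and 51.9 CPM (LNP-Sirpa) and 67.6 and 70.3 CPM (control), against 9.4 to 21.1 CPM in all other barcodes. Of these, Cspg4 was found in 41.55% of members. The 9 macrophage markers that the rule did not use summed to 510 and 710 CPM (LNP-Sirpa) and 725 and 645 CPM (control), which was 5.35% to 6.84% of the level in myeloid barcodes of the same libraries. The rule sets this gap in part, since it capped other macrophage genes in members. Mast cell and basophil markers reached 179 CPM in LNP-Sirpa replicate 1, against 2.6 CPM in LNP-Sirpa replicate 2 and 26.9 and 25.3 CPM in the controls.

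Transcripts of the Y chromosome separated these members from the leukocytes of the same tumours. Ddx3y, Eif2s3y, Kdm5d and Uty, which are read only from a Y chromosome and were chosen here after their values were seen, summed to 10.5 and 10.9 CPM in Sparc/Col3a1 barcodes of the LNP-Sirpa libraries and 10.3 and 12.0 CPM in those of the controls. In myeloid barcodes of the same libraries they summed to 125 and 127 CPM (LNP-Sirpa) and 114 and 129 CPM (control), and in T cell barcodes to 178 and 187 CPM and 193 and 186 CPM. The ranges did not overlap, and the members' level was 8.39% to 9.36% of the myeloid level. No Y-linked UMI was seen in 936 of 1095 members at a median of 13401.5 UMIs. Thinned to 3000 UMIs, Ddx3y was found in 2.70% and 2.76% (LNP-Sirpa) and 0.35% and 1.03% (control) of members, against 22.99% and 17.99% (LNP-Sirpa) and 23.45% and 22.31% (control) of T cell barcodes. Xist, the transcript of an inactive X chromosome, had 1 UMI among all members. Whether the members carry a Y chromosome was not tested.

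A small subset did carry the classical fibroblast genes. Only 18 members, 5 and 2 in LNP-Sirpa replicates 1 and 2 and 3 and 8 in control replicates 1 and 2, had at least 5 UMIs of Lum, Postn, Fap, Thbs2, Mfap2, Mfap4, Mfap5 and Col12a1 together, a subset defined after the data were seen and described without a test. Over these 18 barcodes Col1a1 reached 11738 CPM, against 91.5 CPM over the other 1077, and Thy1 reached 1099.97 CPM, against 5.21 CPM. Pdgfra stood at 148 CPM, against 11.8 CPM. Hmga2, Sox9 and Tubb3 ran the other way, at 61.1, 91.7 and 20.4 CPM in the 18 and 194, 296 and 303 CPM in the 1077. The Y-linked genes summed to 91.7 CPM in the 18, with 18 UMIs in all, and 10.0 CPM in the 1077. These 18 members held most transcripts of the fibroblast genes used to choose them, 965 UMIs against 82 in the rest.

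**Figure D2:**
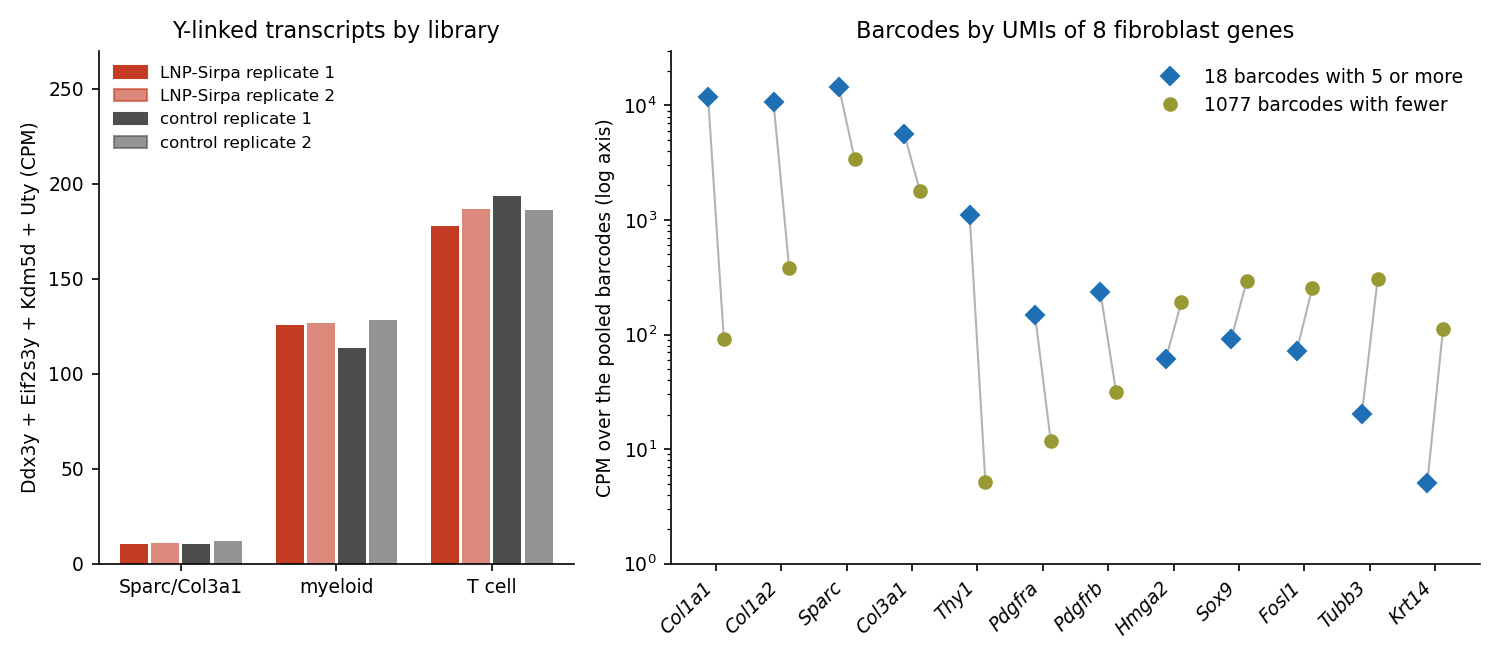
Left, bars of the summed CPM of Ddx3y, Eif2s3y, Kdm5d and Uty in each library for 3 populations, with LNP-Sirpa left of control, where Sparc/Col3a1 barcodes lie at 10.3 to 12.0 CPM and all others above 110. Right, pooled CPM of 12 genes (log axis) in the 18 members with at least 5 UMIs of 8 fibroblast genes (diamonds) and in the other 1077 (circles), where Col1a1 and Thy1 are higher and Hmga2, Tubb3 and Krt14 lower in the 18.

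Sparc/Col3a1 barcodes made up 2.94% (95% Wilson interval 2.63% to 3.28%) and 2.02% (1.75% to 2.33%) of all barcodes in the LNP-Sirpa libraries, and 4.03% (3.612% to 4.503%) and 2.81% (2.52% to 3.14%) in the control libraries. The means were 2.48% ± 0.65 for LNP-Sirpa and 3.42% ± 0.87 for control (SD, n = 2 each), and the groups overlapped (difference -0.94 percentage points, two-sided exact permutation p = 0.67, where the design allows no p below 0.33). Among barcodes below the myeloid ceiling the shares were 5.22% and 3.96% (LNP-Sirpa) and 13.1% and 11.8% (control), without overlap, at that smallest p of 0.33. T cell barcodes, which enter this denominator, numbered 1605 and 1066 (LNP-Sirpa) and 261 and 589 (control). Intervals cover counting error only.

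Genes that respond to interferon were among those higher in Sparc/Col3a1 barcodes with LNP-Sirpa. Counts were summed per library and tested with edgeR's quasi-likelihood test, with Benjamini-Hochberg adjustment over 11811 genes and a threshold of 0.05 (n = 2 libraries per group). 64 genes (0.542%) were higher and 8 (0.0677%) lower, and 1348 (11.4%) had an unadjusted p under 0.05. Of the 64, 26 belonged to the interferon or MHC lists and 28 had a mean of at least 50 CPM. The genes of the rule stayed out of these counts. The number of calls rested on few libraries: without control replicate 1 or 2, 9 and 23 genes were higher, and without LNP-Sirpa replicate 1 or 2, 189 and 458 were. Each of these fits sets 1 library against 2, takes the spread from the group that still has 2, and assumes that the lone library varies like them. In these fits 13, 21, 70 and 71 of the 72 genes were called, and all 72 had the same sign. Values of LNP-Sirpa and of control libraries are given below in the order of replicates 1 and 2.

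The 28 type I interferon genes were all tested, all had positive fold changes with a median of 2.83 (log2) against 0.00 over all genes tested, and 7 passed. In 27 of them both LNP-Sirpa libraries lay above both controls, as did 14.9% of all genes tested. Zbp1, a sensor of Z-form nucleic acid, had 220 and 137 CPM in the LNP-Sirpa libraries and 22.95 and 29.1 CPM in the controls (log2 2.86 ± 0.26 SE, adjusted p = 0.01012). Rtp4, an interferon-induced chaperone of receptors, had 178 and 95.8 CPM with LNP-Sirpa and 16.7 and 23.2 CPM in controls (2.86 ± 0.33, adjusted p = 0.02096). Bst2, or tetherin, which holds budding viruses at the cell surface, had 1312 and 623 CPM with LNP-Sirpa and 124 and 160 CPM in controls (2.84 ± 0.36, adjusted p = 0.03561). The groups of these 3 genes did not overlap, and LNP-Sirpa replicate 1 was the higher of its pair in each. Xaf1, a pro-apoptotic interferon target, rose by 2.29 ± 0.21 (adjusted p = 0.01012), and Oas3, which makes the activator of RNase L, by 3.18 ± 0.40 (adjusted p = 0.03079). Ifih1, the RNA sensor MDA5, and the nucleotide kinase gene Cmpk2 were the other 2. Isg15, the ubiquitin-like modifier, named after its values were seen, did not pass, at 1375 and 481 CPM (LNP-Sirpa) and 70.1 and 92.3 CPM (control), with an adjusted p of 0.09811.

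Of 21 interferon γ genes in the files 20 were tested, 14 rose and none fell, with a median log2 change of 2.21, and in all 20 both LNP-Sirpa libraries lay above both controls. Gbp2, a guanylate-binding protein that attacks the membranes of intracellular pathogens, had 386 and 340 CPM with LNP-Sirpa and 76.7 and 89.9 CPM in controls (2.21 ± 0.19, adjusted p = 0.01012). Gbp7 had 260 and 181 CPM with LNP-Sirpa and 31.3 and 39.9 CPM in controls (2.71 ± 0.24, adjusted p = 0.01012). Neither gene's groups overlapped, and these were the 2 of 25 named genes past the threshold that stayed past it in every alternative run. Igtp, also called Irgm3, a GTPase of the vacuoles around pathogens, had 374 and 252 CPM with LNP-Sirpa and 49.5 and 65.2 CPM in controls (2.53 ± 0.25, adjusted p = 0.01012). Its relative Irgm2 had 107 and 71.1 CPM with LNP-Sirpa and 19.9 and 20.5 CPM in controls (2.23 ± 0.23, adjusted p = 0.01085). Iigp1 rose by 2.30 ± 0.23, and Cxcl10, which attracts T cells through CXCR3, had 794 and 496 CPM with LNP-Sirpa against 196 and 203 CPM in controls (adjusted p = 0.02194). Over whole families, 6 of 9 guanylate-binding proteins and 6 of 7 immunity-related GTPases tested rose; members of both families share sequence, so reads could be split between near copies. Ifi204 and Ifi211, of the PYHIN family of DNA sensors, rose by 2.55 ± 0.32 and 2.30 ± 0.30.

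The bases before the start of 4 of these genes are shown. All 4 hold the interferon-stimulated response element core and changed more here than in myeloid barcodes, as did Gbp3, which is not shown. Psmb9, Psmb10, H2-DMa, Cmpk2 and Slfn2 also rose and changed more here, but lacked the core in the 250 bases before the start. A link between the core and the larger change was not tested. Sequences are from RefSeq on GRCm38.p6, an older build than the files' GRCm39, and run 5′ to 3′ on the gene's strand over the 250 bases before the start; capitals mark the core, which is GAAA, any 2 bases and GAAA again, on either strand.
Igtp, chr11:58199306-58199555, plus strand: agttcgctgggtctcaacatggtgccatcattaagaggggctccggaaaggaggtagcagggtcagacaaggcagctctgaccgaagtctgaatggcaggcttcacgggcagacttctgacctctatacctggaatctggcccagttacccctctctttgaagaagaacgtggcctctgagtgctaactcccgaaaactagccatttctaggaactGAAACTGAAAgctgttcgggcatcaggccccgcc
Irgm2, chr11:58214727-58214976, plus strand: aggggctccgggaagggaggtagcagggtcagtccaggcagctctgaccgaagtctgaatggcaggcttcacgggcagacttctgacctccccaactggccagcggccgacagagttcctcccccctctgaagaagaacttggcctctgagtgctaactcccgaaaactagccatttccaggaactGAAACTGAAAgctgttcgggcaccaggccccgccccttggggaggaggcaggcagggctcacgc
Gbp7, chr3:142530086-142530335, plus strand: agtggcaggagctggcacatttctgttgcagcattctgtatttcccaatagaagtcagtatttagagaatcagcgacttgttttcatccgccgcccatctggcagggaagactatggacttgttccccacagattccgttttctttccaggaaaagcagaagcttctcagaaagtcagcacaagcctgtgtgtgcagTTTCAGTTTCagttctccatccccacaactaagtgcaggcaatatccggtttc
Bst2, chr8:71537473-71537722, minus strand: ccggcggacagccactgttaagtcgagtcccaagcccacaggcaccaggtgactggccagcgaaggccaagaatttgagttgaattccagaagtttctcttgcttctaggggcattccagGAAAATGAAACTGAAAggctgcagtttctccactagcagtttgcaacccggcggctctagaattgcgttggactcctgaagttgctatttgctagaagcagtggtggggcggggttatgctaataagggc

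In Bst2 the capitals hold 2 overlapping matches, and in Gbp7 the match is on the other strand. Between the match and the gene's start lie 24 bases in Igtp, 54 in Irgm2 and 43 in Gbp7. Igtp and Irgm2 are neighbours on chromosome 11, and their promoters share a run of 29 identical bases over the match and another of 55 bases before it. Of the 64 genes that rose, 49 had a promoter in the table, and 18 of these (36.7%) held this core in at least 1 promoter, as did 3.38% of the 9268 tested genes with a promoter and 3.46% of all 27025 genes. The gamma-activated site, TTC and GAA with any 3 bases between, was found in 11 of the 49 (22.4%), against 7.03% of the tested genes. It can overlap the first motif. Of the 6 genes that fell and had a promoter, 1 held the first motif and none the second. These are counts of letters in a window of 250 bases, not of bound sites.

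Of the antigen presentation genes, 4 of 17 class I genes and 1 of 8 class II genes rose. All 17 MHC class I presentation genes were tested, all had positive fold changes with a median of 1.19 and separate groups, and 4 passed, each part of peptide production or transport. The immunoproteasome subunit gene Psmb10 had 527 and 357 CPM with LNP-Sirpa and 135 and 131 CPM in controls (1.81 ± 0.20, adjusted p = 0.01508). Psmb9 rose by 1.86 ± 0.26 (adjusted p = 0.03128) and Psmb8 by 1.41 ± 0.21 (adjusted p = 0.03476). Tap1, which carries peptides into the endoplasmic reticulum, had 199 and 140 CPM with LNP-Sirpa and 45.7 and 63.5 CPM in controls (1.72 ± 0.24, adjusted p = 0.03109). The light chain gene B2m, named after its values were seen, had 1994 and 1624 CPM with LNP-Sirpa and 833 and 1104 CPM in controls, and did not pass (adjusted p = 0.1241). The class II gene that rose was H2-DMa, which loads peptides onto class II, at 107 and 73.0 CPM with LNP-Sirpa and 26.2 and 31.0 CPM in controls (1.74 ± 0.23, adjusted p = 0.02207). In 7 of the 8 class II genes both LNP-Sirpa libraries lay above both controls, and H2-DMb2, at 2.10 and 0.96 CPM with LNP-Sirpa and 2.67 and 2.32 CPM in controls, lay the other way. The checkpoint ligand gene Cd274 (PD-L1), of the interferon γ list, had 32.2 and 41.6 CPM with LNP-Sirpa and 6.58 and 10.6 CPM in controls (2.20 ± 0.31, adjusted p = 0.03079).

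The summed type I interferon level of Sparc/Col3a1 barcodes was 6367 and 2626 CPM with LNP-Sirpa and 628 and 783 CPM in controls. This was 79.18% and 81.28% (LNP-Sirpa) and 39.37% and 56.92% (control) of the level in myeloid barcodes of the same libraries. The part that RNA from other cells had in this level was not tested. The rise was spread over the members. Median values per barcode were 62.98 and 23.27 UMIs of the list per 10000 with LNP-Sirpa and 3.85 and 5.10 in controls, and the lower quartiles with LNP-Sirpa, 42.52 and 14.24, lay above the upper quartiles of the controls, 8.26 and 10.68. Thinned to 3000 UMIs, 96.62% and 64.64% of members with LNP-Sirpa had at least 5 UMIs of the list, and 12.46% and 16.84% in controls (99.67% and 98.35% against 62.38% and 64.05% before thinning). Interferon γ genes had medians of 22.13 and 19.34 UMIs per 10000 with LNP-Sirpa and 2.52 and 4.39 in controls, so LNP-Sirpa replicates 1 and 2 were closer for this list than for type I genes.

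**Figure D3:**
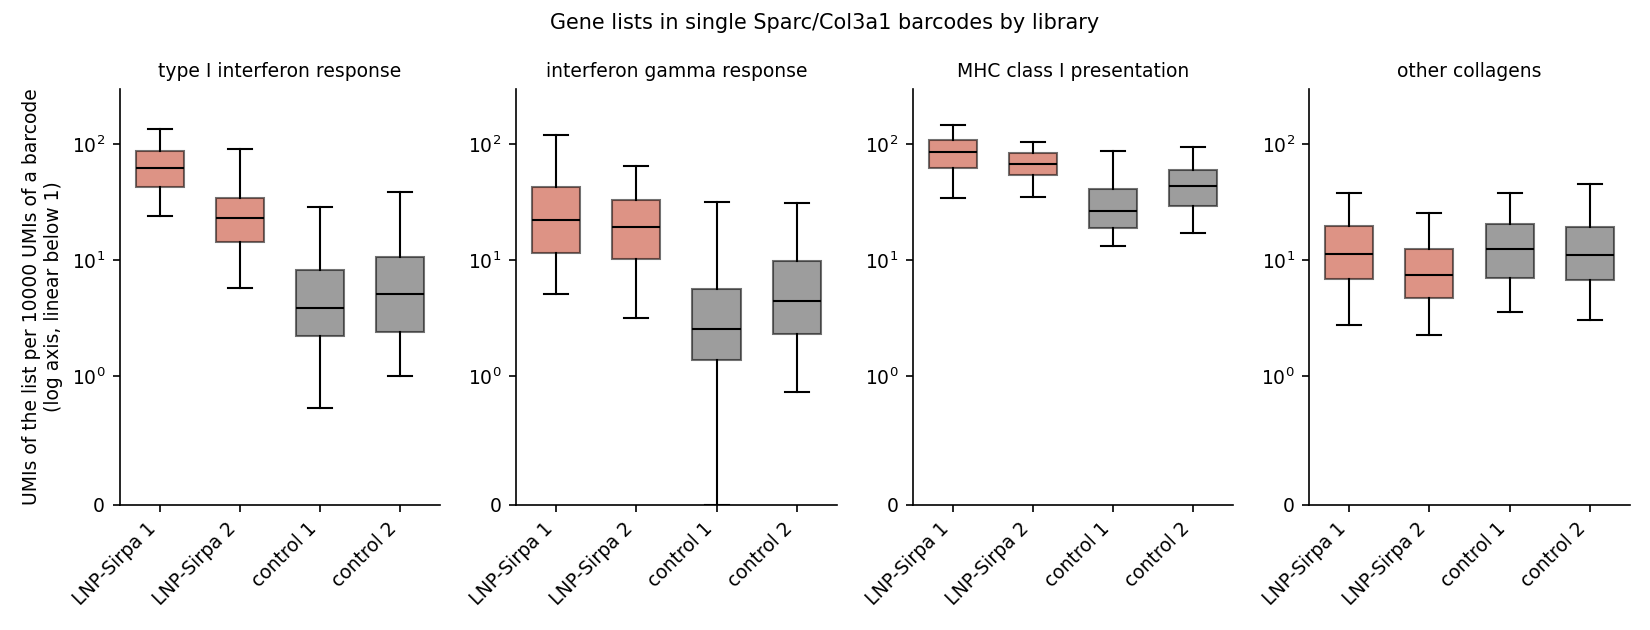
UMIs of 4 gene lists per 10000 UMIs of each Sparc/Col3a1 barcode (log axis, linear below 1), with LNP-Sirpa libraries left of controls; boxes span the quartiles with the median as a line, and whiskers the 5th to 95th percentile of 304, 182, 303 and 306 barcodes. Type I interferon medians are 62.98 and 23.27 with LNP-Sirpa and 3.85 and 5.10 in controls, while collagen medians are 11.27 and 7.50 with LNP-Sirpa and 12.51 and 11.14 in controls.

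Matrix genes did not pass the test. None of 14 tested collagens outside the rule was called, with a median of -0.46, and 13 of 14 had negative fold changes. Col6a1 had 248.6 and 197 CPM with LNP-Sirpa and 305 and 388 CPM in controls (-0.55 ± 0.20, adjusted p = 0.3584), and both LNP-Sirpa libraries lay below both controls in 8 of the 14, as in 29.5% of all genes tested. None of 19 matrix glycoproteins and proteoglycans (median -0.33, but 0.21 without control replicate 2) and none of 14 genes of collagen processing (median -0.22) passed either. Of the fibroblast lineage list 10 of 13 genes were expressed enough to be tested and none passed (median 0.05, but -0.59 without LNP-Sirpa replicate 1). On simulated sums edgeR recovered 62% of genes changed by log2 1 and 100% at log2 2 in this comparison. The simulated spread was set by mean expression alone, so these shares can overstate what the data allow. Changes were simulated only in genes above a minimum mean CPM, so the shares do not cover scarcer genes such as Pdgfra. In the data 7 of 28 type I interferon genes passed at a median log2 change of 2.83. Changes of log2 2 in matrix genes could therefore be missed too. As description, the rule genes stood at 3069 and 2580 CPM (LNP-Sirpa) and 4183 and 3875 CPM (control) for Sparc and 1859.6 and 925 CPM (LNP-Sirpa) and 1898 and 2302 CPM (control) for Col3a1.

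None of 22 cell cycle genes (median -0.25), 23 glycolysis and hypoxia genes (median 0.08, but -0.36 without LNP-Sirpa replicate 2), 19 genes of the NF-κB and TNF response (median 0.26) and 16 dissociation and stress genes (median 0.21, but -0.02 without LNP-Sirpa replicate 1) passed. Among 11 inflammatory fibroblast genes, 9 adventitial fibroblast genes, 13 genes of the TGF-β pathway, 14 matrix proteases and inhibitors and 9 growth factors, none passed. Sirpa, whose product the treatment is aimed at, was found in 54.98% of members. It had 51.2 and 42.9 CPM with LNP-Sirpa and 80.6 and 60.6 CPM in controls (-0.49 ± 0.20, adjusted p = 0.4026), and 326 to 524 CPM in myeloid barcodes. Its ligand gene Cd47 had 400.3 and 248.8 CPM with LNP-Sirpa and 233 and 249.9 CPM in controls (0.51 ± 0.22, adjusted p = 0.4427).

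**Figure D4:**
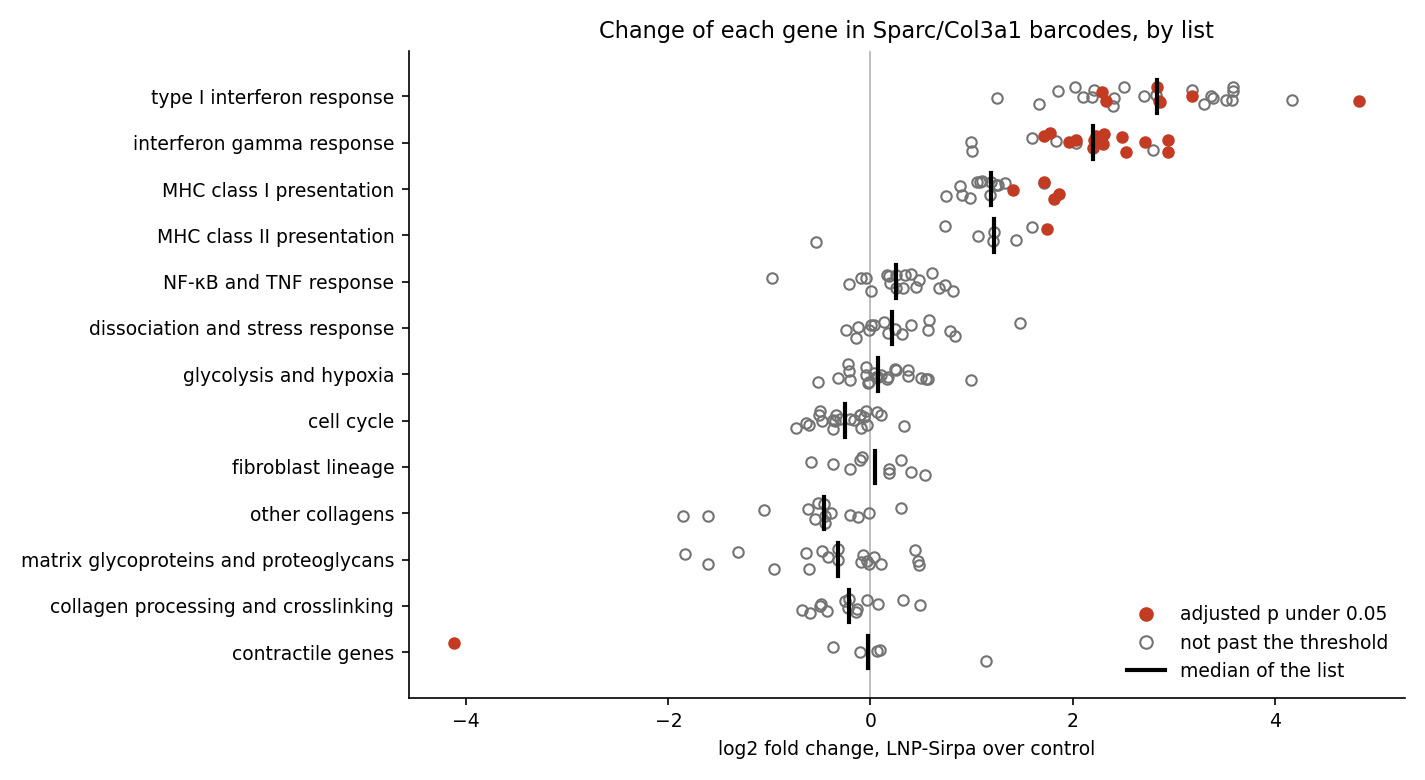
Log2 fold changes (LNP-Sirpa over control) of single genes in 13 lists, with list medians as bars and genes past an adjusted p of 0.05 filled (edgeR, n = 2 libraries per group). All genes of the type I interferon, interferon γ and MHC class I lists lie right of 0, and collagen medians lie left of 0 with no gene past the threshold.

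Igfbp6 was the only gene with a mean of at least 50 CPM that fell. It had 666 and 607 CPM in LNP-Sirpa libraries and 1394 and 1464 CPM in controls (-1.08 ± 0.17, adjusted p = 0.04364), without overlap. It did not pass without control replicate 1 or without control replicate 2, where its adjusted p reached 0.306. The genes next in line did not pass: Ddit4, an inhibitor of mTOR signalling, at 46.9 and 30.4 CPM with LNP-Sirpa and 100.3 and 106 CPM in controls (adjusted p = 0.05449), S100a16 (adjusted p = 0.1048), Cyb5r3 (adjusted p = 0.1134) and Lrrn4cl (adjusted p = 0.1182). Below 50 CPM, the homeobox gene Rhox5, named after its values were seen, had 10.7 and 13.1 CPM with LNP-Sirpa and 71.3 and 65.9 CPM in controls (-2.44 ± 0.21, adjusted p = 0.01012).

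Of the 8 genes that fell, 4 rested on very few barcodes. The smooth muscle gene Tagln was found in 12 members, with 92.31% of its UMIs in 5 of them, and stood at 0.63 and 0.32 CPM with LNP-Sirpa and 8.72 and 10.8 CPM in controls (-4.12 ± 0.51, adjusted p = 0.02096). The fatty acid binding protein gene Fabp4 was found in 17 members, with 96.46% of its UMIs in 5 at 0.84 and 0.96 CPM with LNP-Sirpa and 42.2 and 20.05 CPM in controls (-4.997 ± 0.52, adjusted p = 0.01178). Igfbp3, a binding protein of insulin-like growth factors, was found in 12 members with 97.93% of its UMIs in 5 (-7.22 ± 0.86, adjusted p = 0.03128). Flt1, a VEGF receptor of endothelium, was found in 42 members with 74.59% of its UMIs in 5, and had 3.58 and 4.16 CPM with LNP-Sirpa and 15.5 and 14.4 CPM in controls (-1.86 ± 0.30, adjusted p = 0.04786). Over members with no Y-linked UMI its fold change was -0.22 (adjusted p = 0.932). Summed endothelial markers, lower in both LNP-Sirpa libraries, moved with Flt1, and their part in the result was not tested.

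Several calls were genes of leukocytes. For the neutrophil genes and Gzma, the summed markers of those cells were also higher with LNP-Sirpa in the rest of each library. The neutrophil genes S100a8 and S100a9 had 23.4 and 36.5 and 28.6 and 57.3 CPM with LNP-Sirpa, and 2.31 and 1.48 and 1.07 and 0.84 CPM in controls (4.04 ± 0.39 and 5.53 ± 0.52, adjusted p = 0.01012 and 0.01085). The 8 neutrophil markers summed to 1562 and 693 CPM with LNP-Sirpa and 125 and 91.9 CPM in controls over all other barcodes. There LNP-Sirpa replicate 1 was the higher of its pair, while in members its CPM was the lower for both genes. Among members, 5 barcodes held 41.63% of the S100a8 UMIs and 47.69% of the S100a9 UMIs. By share of members with a UMI, LNP-Sirpa replicate 1 was above replicate 2. These shares were 26.97% against 13.74% for S100a8 and 31.91% against 20.33% for S100a9. Gzma, a granzyme, had 17.3 and 16.3 CPM with LNP-Sirpa and 4.09 and 2.53 CPM in controls (2.41 ± 0.31, adjusted p = 0.02207), and the 12 T and NK markers of all other barcodes summed to 2086 and 1278 CPM with LNP-Sirpa and 569 and 795 CPM in controls. Srgn, of the leukocyte list, rose by 1.28 ± 0.20 (adjusted p = 0.04205). In all other barcodes the 9 markers of that list differed little, at 10739 and 10966 CPM with LNP-Sirpa and 10001 and 9617 CPM in controls. Fcrls and Selenop, genes of resident macrophages named after their values were seen, fell by 2.90 and 2.44 on the log2 scale. The part that RNA from other cells had in these values was not tested.

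The change in Sparc/Col3a1 barcodes was then set against that in myeloid barcodes of the same libraries (22302 barcodes with at least 100 UMIs of C1qa, C1qb, C1qc, Apoe and Lyz2 per 10000 and under 20 of the 4 matrix genes), with edgeR's test of the interaction and the library as a block. Of 16064 genes, 37 (0.23%) changed more positively and 30 (0.187%) more negatively in Sparc/Col3a1 barcodes, 0.417% in all. The type I list had 3 of its 28 genes and the interferon γ list 4 among the 37, with median differences of 0.61 and 0.66 (log2) beside 0.02 over all genes tested. Both lists also rose in the other populations. Type I medians were 2.38 in myeloid and 2.01 in T cell barcodes, and interferon γ medians 1.52 and 0.80. Of the genes that rose here, 62 were fitted in myeloid barcodes, and all 62 had the same sign there. Igfbp6, which fell here, had a log2 fold change of -1.08 in myeloid barcodes too. Gbp7 changed by 1.86 ± 0.21 more here (adjusted p = 8.108e-05), and its myeloid level was 354 and 152 CPM with LNP-Sirpa and 118 and 168 CPM in controls, with overlap. For Bst2 the difference was 1.65 ± 0.21 (adjusted p = 0.0007473), with 631 and 367 CPM (LNP-Sirpa) and 258 and 225 CPM (control) in myeloid barcodes. Igtp (0.93), Irgm2 (1.15), Psmb9 (0.95), Psmb10 (0.99) and H2-DMa (1.22) also differed. The stress cytokine gene Gdf15 had the largest positive difference of the genes named by the rule (3.45 ± 0.30, adjusted p = 9.854e-06), at 108 and 29.8 CPM with LNP-Sirpa and 12.5 and 10.8 CPM in controls here, against 15.7 and 3.77 CPM with LNP-Sirpa and 13.3 and 23.4 CPM in controls in myeloid barcodes. In edgeR's test of each population alone Gdf15 did not pass (adjusted p = 0.244 here and 0.5919 in myeloid barcodes).

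On the other side, Ly6a, Ifitm1, Inhba and Ddit4 did not pass the test here and had higher values with LNP-Sirpa in myeloid barcodes. In edgeR's test of the myeloid barcodes alone they did not pass either (adjusted p = 0.09431, 0.09813, 0.09813 and 0.2138). Ly6a, the stem cell antigen Sca-1, had 3546 and 2354 CPM with LNP-Sirpa and 1555 and 2000.0 CPM in controls here, and 1685 and 1451 CPM with LNP-Sirpa and 85.2 and 153 CPM in controls in myeloid barcodes (difference -3.09 ± 0.22, adjusted p = 1.57e-06). Ifitm1, an antiviral membrane protein, had 384 and 497 CPM with LNP-Sirpa and 622 and 626 CPM in controls here, against 129 and 137 CPM (LNP-Sirpa) and 22.97 and 35.1 CPM (control) in myeloid barcodes (-2.77 ± 0.21, adjusted p = 5.728e-07). Inhba, the activin A subunit, stood at 62.1 and 71.4 CPM with LNP-Sirpa and 71.3 and 90.6 CPM in controls here, against 54.6 and 74.9 CPM (LNP-Sirpa) and 10.2 and 12.96 CPM (control) in myeloid barcodes, a difference of -2.78 ± 0.22 (adjusted p = 5.728e-07). The numbers of such genes depended on the libraries: they were 133 on the positive side and 197 on the negative side without LNP-Sirpa replicate 1, and 128 and 113 without LNP-Sirpa replicate 2. Without control replicate 1 they were 31 and 39, and without control replicate 2 they were 67 and 73.

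**Figure D5:**
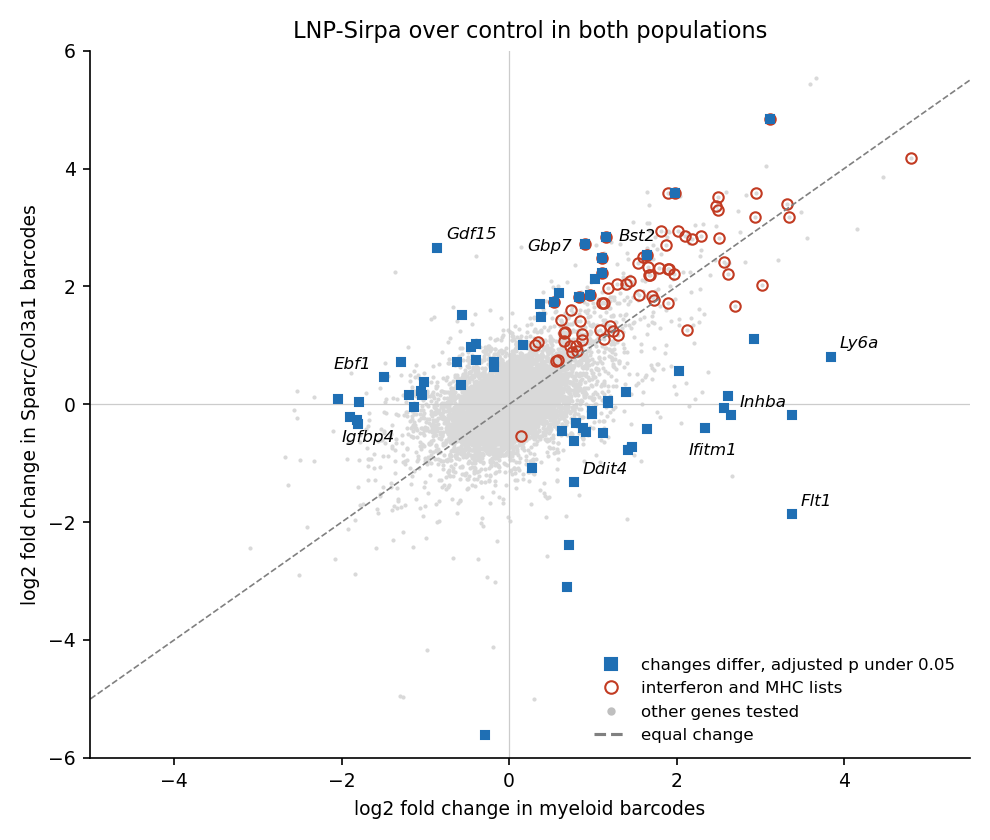
Log2 fold change (LNP-Sirpa over control) of each tested gene in Sparc/Col3a1 barcodes against that in myeloid barcodes of the same libraries, with the dashed line marking equal change and squares the genes whose changes differed (edgeR interaction, adjusted p under 0.05). Genes of the interferon and MHC lists lie mostly on or above the line, Gdf15 above it, and Ly6a, Inhba, Ifitm1 and Flt1 below it.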

How the data were processed

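Cells sorted for CD45 from MC38 tumours were profiled with a DNBelab C Series droplet kit, per the labels' protocols. The authors deposited whole-number UMI counts per gene and barcode for each library, made with PISA 1.0 per the file headers. The submitters' processing notes name STAR 2.5.1b and GRCm39. The 4 oligo libraries were not analysed here. Scripts ran in Python 3.11.15 and R 4.3.3.

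The members, gene lists and tests were chosen with earlier results of these data known. UMI counts of members were summed per library, and CPM are those sums scaled to the library's members. Sums were tested with edgeR 4.0.16 (filterByExpr, TMM, robust quasi-likelihood F test, Benjamini-Hochberg adjustment, threshold 0.05), with DESeq2 1.42.0 as an alternative. The genes of the rule stayed in the fit and are given only as levels. Named genes were the 10 largest called rises and the 10 largest called falls that averaged 50 CPM or more, up to 4 called genes per list with the smallest p, Sirpa, Cd47 and the 5 smallest interaction p in each direction. Where fewer than 5 genes passed in a direction, the 5 smallest p were given. Fold changes carry standard errors. edgeR's test prints none, so each was derived as the size of the fold change over the square root of its F statistic. Scrublet's own threshold called at most 2 barcodes per library outside the members and did not work here, so the highest 5% of scores were left out as an alternative. On simulated sums, 62% of genes changed by log2 1 and 100% at log2 2 were recovered for LNP-Sirpa against control (11605 genes, 13 unchanged genes called), and 12% and 88% for the interaction (11811 genes, 3 unchanged genes called). The simulated spread depended on mean expression alone, so these shares can overstate recovery in the data. Depth per library is given with the results, and intervals cover counting error only. Other gates, filters, scalings and left-out libraries were also run.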

Additional observations from a re-analysis of the deposited data

Results flagged for a closer look

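The treatment effect differed between Sparc/Col3a1 and myeloid barcodes of the same libraries, by edgeR's interaction test, for 37 genes with a more positive and 30 with a more negative change in Sparc/Col3a1 barcodes. Differences are on the log2 scale, with the fold change in Sparc/Col3a1 barcodes before that in myeloid barcodes. Gdf15 differed by 3.45 (2.66 against -0.86), Gbp7 by 1.86 (2.71 against 0.91) and Bst2 by 1.65 (2.84 against 1.16). Ebf1, a transcription factor, differed by 1.98 (0.46 against -1.496) and Igfbp4 by 1.69 (-0.22 against -1.90), where the myeloid fold change was the more negative for both genes. Gdf15, Ebf1 and Igfbp4 did not pass the test in either population alone. Flt1 differed by -5.14 (-1.86 against 3.38), and its part here rested on few barcodes. Inhba differed by -2.78 (-0.19 against 2.65), Ifitm1 by -2.77 (-0.40 against 2.34), Ly6a by -3.09 (0.81 against 3.85) and Ddit4 by -2.12 (-1.32 against 0.78).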

How the results depend on the processing

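The number of genes higher with LNP-Sirpa was 181 with DESeq2, 419 with no filter on low counts and 100.0 with at least 30 UMIs of the matrix genes per 10000, and ranged from 9 to 458 when a library was left out. The number lower was 30 with DESeq2, 192 with no filter and 23 with 30 per 10000, 5 with 10 UMIs of the matrix genes or a myeloid ceiling of 50 per 10000, and 13 with no Ptprc or Cd3 UMI, and ranged from 10 to 173 when a library was left out. With the replicate number as a block, 12 genes were higher and 5 lower; the numbers are shared labels only, with a correlation of -0.095 between same-numbered deviations. Genes differing from myeloid barcodes numbered 121 and 141 with no filter, and 31 to 133 and 39 to 197 when a library was left out. The cause of these shifts was not tested. The median log2 fold change of the list contractile genes, -0.02, was -0.245 to 0.024 when a library was left out and -0.431 with no filter on low counts. It was also positive at 0.012 without the highest Scrublet scores, 0.142 without barcodes carrying other cell type markers, 0.112 among members with no Y-linked UMI and 0.086 without the 18 fibroblast gene barcodes; the last 2 settings were chosen after seeing the data. Medians of other lists with no or few calls also crossed 0 over the alternatives: -0.70 to 0.21 for matrix glycoproteins and proteoglycans, -0.59 to 0.46 for fibroblast lineage, -0.73 to 0.06 for adventitial genes, -0.18 to 0.36 for inflammatory fibroblast genes, -0.47 to 0.06 for matrix proteases, -0.06 to 0.40 for growth factors, -0.01 to 0.22 for the TGF-β pathway, -0.36 to 0.33 for glycolysis and hypoxia, -0.02 to 0.47 for stress genes and -0.22 to 0.33 for the SIRPα and CD47 axis. Those of the interferon and MHC lists stayed positive, and those of the other collagens, collagen processing and cell cycle lists negative, in every alternative run. The difference in share stayed negative in every alternative run. Depth limited genes with few UMIs.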

Other observations

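Further genes of Sparc/Col3a1 barcodes that rose with LNP-Sirpa were named after their values were seen. Ubd, the ubiquitin-like modifier FAT10, had 63.6 and 46.8 CPM with LNP-Sirpa and 5.51 and 6.75 CPM in controls (log2 3.26 ± 0.25 SE, edgeR adjusted p = 0.01012, higher in both LNP-Sirpa libraries than in both controls). Of 6 tested members of the Schlafen family, 2 rose. Slfn2 had 49.9 and 33.3 CPM with LNP-Sirpa and 11.2 and 12.7 CPM in controls (1.89 ± 0.25, edgeR adjusted p = 0.02207), and Slfn1 had 10.5 and 7.37 CPM with LNP-Sirpa and 0.89 and 1.06 CPM in controls (3.27 ± 0.44, edgeR adjusted p = 0.02442). The chemokine gene Ccl5 had 79.6 and 62.5 CPM with LNP-Sirpa and 10.5 and 17.7 CPM in controls (2.42 ± 0.28, edgeR adjusted p = 0.01861). T and NK cells also express Ccl5, and their markers were higher with LNP-Sirpa in the rest of each library; the part of RNA from those cells was not tested. Msln, the mesothelial marker mesothelin, was found in 63.2% of members and had 59.2 and 95.1 CPM with LNP-Sirpa and 159 and 181 CPM in controls, and did not pass (-1.05 ± 0.27, edgeR adjusted p = 0.2048).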
